A study of Mus musculus with 6 samples.

Results

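The genes described here are 46 genes of the actin cytoskeleton, named as a list that runs from the filament bundler Fscn1 to small GTPases and their activators. Each gene was represented by the probe set, a group of short oligonucleotide probes, that had a single gene symbol and the highest mean over the 6 arrays. Of the 46, 43 had such a probe set, among 18193 genes measured in all. Actr2, Arpc1b and Arpc3, 3 of the 7 listed genes of the Arp2/3 complex, are not analysed here; the probe sets listed for Arpc1b are shared with a second gene.

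RNA was hybridised to 6 Affymetrix arrays, 2 for each of 3 kinds of cell grown from bone marrow of C57BL/6 mice. GM-MPP were multipotent progenitors raised with stem cell cytokines and GM-CSF, a myeloid growth factor. GM-DC were dendritic cells, which take up antigen and show it to T cells, raised from GM-MPP with GM-CSF. GM-TNFa-DC were raised in the same way with the inflammatory cytokine TNFa added, so GM-CSF was common to all 3 groups. The sources used here do not give doses, culture times, ages or the origin of the 2 arrays of a group. Each p-value below therefore measures the spread between these arrays, and that spread may be technical.

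Actin filaments push the cell membrane forward, hold cells to surfaces and carry the cell shape. The Arp2/3 complex starts branched networks when WASP and WAVE proteins call on it, formins and Ena/VASP proteins build long straight filaments, bundling proteins tie filaments together, and cofilin and gelsolin cut them. Small GTPases such as Rac1 and Cdc42 switch these machines on. Dendritic cells are known for long veils and dendrites and for fast migration, and fascin, the product of Fscn1, is a common marker of mature dendritic cells.

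Promoter sequences from RefSeq (build GRCm38.p6) were set beside the expression values for 3 genes, chosen after their values were seen: Fscn1 and Rhoc, which had the largest increases that passed the test, and Vcl, which held the most kinds of searched motif. Each window holds the 250 bases before the annotated start, written 5′ to 3′ on the gene's strand, and capitals mark matches to a searched motif on either strand. All 3 windows lie on the + strand.
Fscn1, chr5:142960105-142960354: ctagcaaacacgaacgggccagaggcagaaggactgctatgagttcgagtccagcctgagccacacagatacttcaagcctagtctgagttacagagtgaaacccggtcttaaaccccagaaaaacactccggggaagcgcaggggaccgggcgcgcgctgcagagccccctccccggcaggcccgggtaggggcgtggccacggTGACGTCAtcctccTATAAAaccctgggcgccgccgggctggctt
Rhoc, chr3:104788784-104789033: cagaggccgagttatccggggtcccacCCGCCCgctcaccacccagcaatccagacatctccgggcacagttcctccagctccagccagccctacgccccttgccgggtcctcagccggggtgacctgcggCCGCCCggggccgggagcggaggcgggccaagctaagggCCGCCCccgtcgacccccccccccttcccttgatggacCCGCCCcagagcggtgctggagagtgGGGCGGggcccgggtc
Vcl, chr14:20929148-20929397: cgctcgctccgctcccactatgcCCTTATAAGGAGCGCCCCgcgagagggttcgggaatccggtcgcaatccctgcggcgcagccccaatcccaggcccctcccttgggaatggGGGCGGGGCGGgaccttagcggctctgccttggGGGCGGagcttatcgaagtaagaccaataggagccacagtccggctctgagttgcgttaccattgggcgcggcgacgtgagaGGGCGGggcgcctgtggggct

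The motifs searched were the GC box GGGCGG, the NF-kB motif, the CArG box that serum response factor binds, the AP-1 type motif TGANTCA and, added after the Fscn1 window was read, TGACGTCA and TATAAA. In the Fscn1 window TGACGTCA, the full cyclic AMP response element, lay at bases -45 to -38 and TATAAA at -31 to -26. The Rhoc window held 5 GC boxes and none of the other motifs. In the Vcl window a CArG box (-227 to -218) overlapped an NF-kB motif (-219 to -210), and 4 GC boxes followed, of which 2 overlapped. The stretch matched as the NF-kB motif read GGAGCGCCCC on the printed strand. Of 32851 promoter windows of this length, 1.55% held TGACGTCA, 12.4% TATAAA, 1.47% a CArG box, 7.25% an NF-kB motif, 6.75% TGANTCA and 32.7% a GC box. Windows were available for 38 of the 43 genes, 49 windows in all, of which 30 held a GC box, 6 an NF-kB motif, 4 TGANTCA, 2 a CArG box, 2 TATAAA and 1 TGACGTCA. A match describes letters and not a bound site.

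Expression is given as log2 values, so a difference of 1 is a doubling, with array medians between 4.67 and 4.77. Probe sets at or below that median may read mostly background, and a fold against them is not exact. Pearson correlations over all probe sets were 0.9876 between GM-DC 1 and GM-TNFa-DC 1 and 0.9902 between GM-DC 2 and GM-TNFa-DC 2, against 0.9696 between both GM-DC arrays and 0.9607 between both GM-TNFa-DC arrays. The dendritic cell arrays thus stood apart by array number, whose meaning the labels do not state. Poly-A control transcripts, which are spiked into the RNA, read higher on number 1 for 24 of 24 probe sets in every group, with median folds of 2.13 to 2.58. Of 10 dendritic cell markers 7 rose in GM-DC against GM-MPP and 1 fell, the receptor gene Flt3, of 7 progenitor markers 5 fell, Flt3 again among them, and of 8 granulocyte precursor markers 5 fell. Of 7 monocyte and macrophage markers 1, Cd68, rose past the threshold; all 7 had means at least 2-fold higher in GM-DC, with a median log2 change of 1.47, and 5 had an unadjusted p under 0.05. Of 11 stromal and endothelial markers 0 passed the test (limma; 1 was higher and 0 lower at an unadjusted p under 0.05).

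GM-DC were compared with GM-MPP to see which of these genes differ between progenitors and the dendritic cells raised from them. The filament bundler Fscn1, the GTPase gene Rhoc, the Ena/VASP gene Evl and the capping protein gene Capg rose, and no member fell past the threshold. That is 4 of 43 genes higher, where 1.87% of all 18193 genes were higher. Of the members 0 were lower, where 2.63% of all genes were (limma with no term for the array number, Benjamini-Hochberg adjusted p under 0.05). At an unadjusted p under 0.05, 10 members (23.3%) were higher and 5 (11.6%) lower, where 9.06% of all genes were higher and 12.5% lower. The members were brighter than most genes, with a median level of 9.81 beside 5.73 over all genes. The median log2 change of the members was 0.07, beside 0.02 over all genes. Of the 43, 25 changed by less than 0.5, as did 12792 of all 18193 genes. The median absolute change was 0.45 for the members and 0.25 over all genes. In bulk samples a change in the share of a cell type and a change in RNA per cell cannot be told apart.

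**Figure D1:**
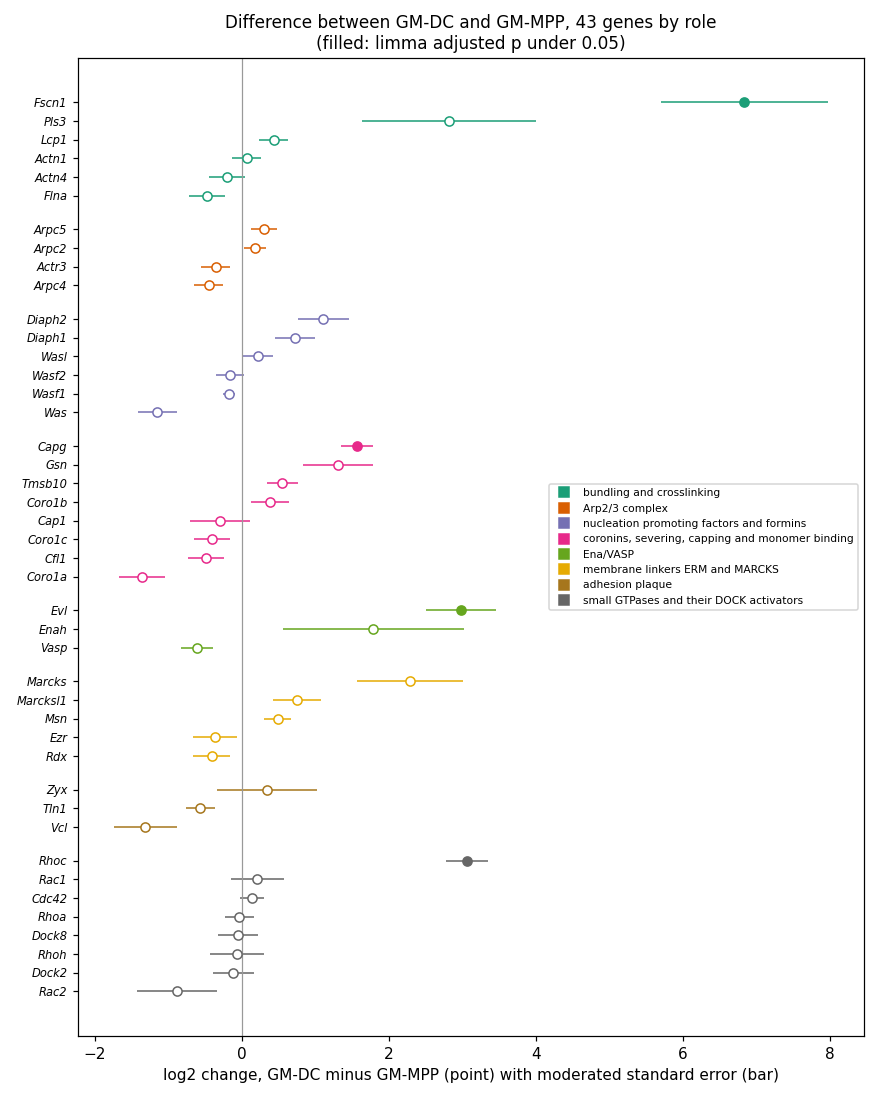
Difference in log2 expression between GM-DC and GM-MPP (n = 2 arrays each) for 43 actin cytoskeleton genes grouped by role. Points are group mean differences, bars are moderated standard errors, and filled points passed the test; Fscn1, Rhoc, Evl and Capg are filled, all to the right of 0.

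Among bundling and crosslinking proteins, Fscn1 encodes fascin, which packs filaments into the tight parallel bundles of filopodia and dendrites. Its brightest probe set read 3.56 and 4.19 on GM-MPP 1 and 2, 11.84 and 9.59 on GM-DC 1 and 2, and 12.80 and 9.84 on GM-TNFa-DC 1 and 2. All 4 dendritic cell arrays were far above both progenitor arrays, which lay below their array medians, and in both dendritic cell groups the number-1 array was the higher. The log2 change in GM-DC was 6.84 ± 1.14 (SE), a 114-fold rise that is not exact (limma adjusted p = 0.0365), with differences of 8.28 between the number-1 arrays and 5.39 between the number-2 arrays.

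The size of the Fscn1 rise depended on the probe set. All 4 probe sets of the gene were higher in GM-DC, but by 6.84 for the probe set used and by 1.43, 1.14 and 0.42 for the others. The same 4 were higher in GM-TNFa-DC than in GM-MPP, by 7.44, 2.05, 1.96 and 0.71. With the mean of the 4 in place of the brightest, the GM-DC change was 2.46 and was no longer called (limma adjusted p = 0.140). Over the alternatives tried its adjusted p ran from 0.0224 to 0.241.

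**Figure D2:**
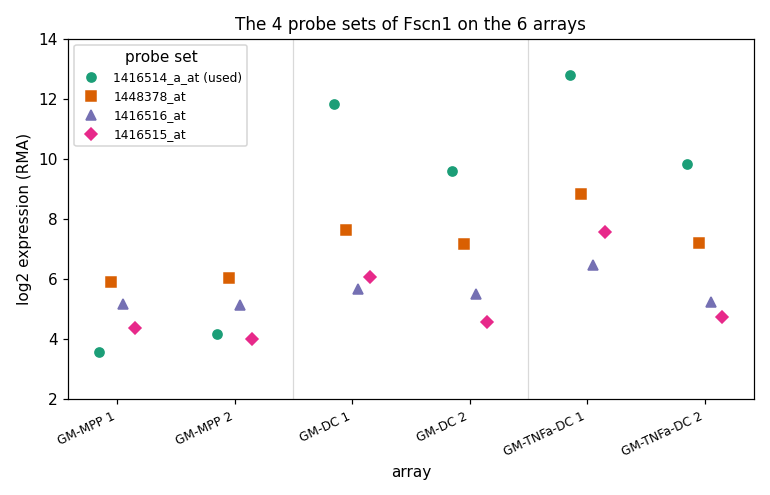
Log2 expression of the 4 Fscn1 probe sets on each of the 6 arrays, 1 marker per probe set. The probe set used in the text runs from 3.56 to 12.80, and the other 3 reach at most 8.84.

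The other bundlers behaved differently. Pls3, the plastin of non-blood tissues, read 4.84 and 4.64 on GM-MPP, 6.04 and 9.09 on GM-DC, and 6.47 and 8.92 on GM-TNFa-DC. Its dendritic cell arrays did not overlap the progenitors, but the number-2 arrays were far above the number-1 arrays, and the change of 2.82 ± 1.18 in GM-DC did not pass (adjusted p = 0.246). Lcp1, the plastin of blood cells, stayed between 11.80 and 12.45 on all 6 arrays (0.43 ± 0.20, adjusted p = 0.283). The alpha-actinins Actn1 (0.07 ± 0.20) and Actn4 (-0.21 ± 0.24) and the filamin Flna (-0.47 ± 0.25), which crosslink filaments into looser webs, did not pass either.

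Of the Arp2/3 complex, which makes branched networks, 4 subunits were measured and none passed. Their changes were 0.30 ± 0.18 for Arpc5, 0.18 ± 0.15 for Arpc2, -0.35 ± 0.19 for Actr3 and -0.45 ± 0.19 for Arpc4 (adjusted p from 0.260 to 0.532). All 4 spanned less than 1 log2 unit over the 6 arrays. The progenitor and GM-DC arrays nevertheless did not overlap for any of the 4, higher in GM-DC for 2 and lower for 2, where 28.3% of all genes did not overlap upward and 27% downward.

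None of the 6 proteins that start filaments passed in GM-DC. Was, the Wiskott-Aldrich protein that calls on Arp2/3 in blood cells, read 9.69 and 9.73 on GM-MPP, 8.70 and 8.42 on GM-DC, and 8.81 and 8.21 on GM-TNFa-DC. All dendritic cell arrays were below the progenitors, by -1.15 ± 0.27 in GM-DC (adjusted p = 0.0791), with -0.99 between the number-1 arrays and -1.30 between the number-2 arrays. Its widely expressed relative Wasl differed by 0.22 ± 0.21, and the WAVE genes Wasf2 and Wasf1 by -0.16 ± 0.19 and -0.18 ± 0.08. Wasf1 lay between 2.62 and 2.81 on all arrays, below the array medians, so its change cannot be read. The formins Diaph1 and Diaph2, which lengthen straight filaments, had values of 0.72 ± 0.27 and 1.11 ± 0.35 (adjusted p = 0.207 and 0.147), and for each the 4 dendritic cell arrays were above both progenitor arrays.

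The Ena/VASP proteins, which keep filament tips growing, did not move together. Evl read 5.82 and 5.97 on GM-MPP, 9.50 and 8.24 on GM-DC, and 8.89 and 8.12 on GM-TNFa-DC. The dendritic cell arrays were all at least 2 log2 units above the progenitors, and Evl rose by 2.98 ± 0.48 in GM-DC, or 7.89-fold (adjusted p = 0.0332). Its 4 probe sets were all higher, by 0.55 to 2.98. With the mean of the 4 in place of the brightest, the GM-DC change was 1.82 and was no longer called. Enah read 8.91 and 5.75 on GM-MPP, 9.96 and 8.28 on GM-DC, and 9.70 and 7.73 on GM-TNFa-DC. The number-1 array was the higher in every group, so its groups overlapped and the change of 1.79 ± 1.23 did not pass (adjusted p = 0.469). Within the array numbers Enah was higher in GM-DC than in GM-MPP, by 1.05 for number 1 and 2.53 for number 2. Vasp differed by -0.61 ± 0.21 (adjusted p = 0.186).

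Capg, a gelsolin relative that caps filament ends without cutting and is abundant in macrophages, read 10.31 and 10.13 on GM-MPP, 11.80 and 11.78 on GM-DC, and 11.38 and 11.89 on GM-TNFa-DC. The 2 GM-DC arrays almost coincided, and Capg rose by 1.57 ± 0.22, or 2.97-fold (adjusted p = 0.0259), with 2 of its 2 probe sets higher. The part of the higher monocyte and macrophage markers in this value was not tested. Gsn, which encodes the cutting and capping protein gelsolin, read 10.16 and 11.29 on GM-MPP, 11.86 and 12.21 on GM-DC, and 11.11 and 12.07 on GM-TNFa-DC. The change of 1.31 ± 0.48 in GM-DC did not pass (adjusted p = 0.195), and 5 of its 6 probe sets were higher. Coro1a, the coronin of blood cells, read 11.81 and 12.27 on GM-MPP, 11.05 and 10.32 on GM-DC, and 10.49 and 10.17 on GM-TNFa-DC. All dendritic cell arrays were lower, by -1.35 ± 0.32 in GM-DC, which did not pass (adjusted p = 0.0787), with -0.76 for number 1 and -1.95 for number 2.

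None of the remaining genes that cut filaments or bind actin monomers passed. Coro1b differed by 0.38 ± 0.26 and Coro1c by -0.40 ± 0.24, and the cofilin gene Cfl1, whose product cuts old filaments, by -0.49 ± 0.24. Cap1, which recycles monomers, differed by -0.29 ± 0.41 with overlapping arrays. Tmsb10, a small monomer-binding thymosin, read 13.04 and 13.08 on GM-MPP, 13.42 and 13.82 on GM-DC, and 13.39 and 13.84 on GM-TNFa-DC. These values are close to the highest value of all, 14.43, where differences may be compressed. The change of 0.55 ± 0.21 did not pass (limma adjusted p = 0.214). Its 2 probe sets of middle brightness differed by more, by 1.21 and 0.93 in GM-DC and by 1.52 and 1.21 in GM-TNFa-DC, each against GM-MPP.

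Among membrane linkers, the MARCKS proteins bind filaments to the membrane and release them when protein kinase C acts, while ezrin, moesin and radixin tie filaments to membrane proteins. Marcks read 7.57 and 9.34 on GM-MPP, 11.17 and 10.31 on GM-DC, and 11.62 and 10.33 on GM-TNFa-DC. The dendritic cell arrays were all higher than both progenitor arrays, with 7 of 7 probe sets higher, but the progenitor arrays differed from each other by 1.77, and the change of 2.28 ± 0.72 did not pass (adjusted p = 0.148). Marcksl1 differed by 0.75 ± 0.32 in GM-DC (adjusted p = 0.256). Moesin (Msn) differed by 0.49 ± 0.18, ezrin (Ezr) by -0.36 ± 0.30 and radixin (Rdx) by -0.41 ± 0.25, none past the threshold.

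The adhesion plaque joins filaments to integrins, and none of its 3 genes passed in GM-DC. Vcl, which encodes vinculin, read 9.90 and 9.63 on GM-MPP, 8.99 and 7.92 on GM-DC, and 8.51 and 7.82 on GM-TNFa-DC. All 4 dendritic cell arrays were below the progenitors, with a change of -1.31 ± 0.43 in GM-DC (adjusted p = 0.159) and 2 of 2 probe sets lower. The talin gene Tln1 differed by -0.56 ± 0.20 (adjusted p = 0.190), with 1 of its 3 probe sets opposed. Zyx, which encodes the stress fibre protein zyxin, read 8.83 and 9.49 on GM-MPP, 10.41 and 8.60 on GM-DC, and 9.95 and 8.87 on GM-TNFa-DC. Its groups overlapped (0.34 ± 0.68, adjusted p = 0.819).

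Among the GTPases, Rhoc, a relative of Rhoa linked to cell migration, had the lowest adjusted p of all members. It read 5.48 and 6.05 on GM-MPP, 8.68 and 8.99 on GM-DC, and 9.69 and 9.34 on GM-TNFa-DC. The 3 groups did not overlap, and Rhoc rose by 3.07 ± 0.29 in GM-DC, or 8.38-fold (adjusted p = 0.00988). Its second probe set was higher too, by 2.10. Rhoa (-0.03 ± 0.20), Cdc42 (0.15 ± 0.16), Rac1 (0.21 ± 0.36) and Rhoh (-0.06 ± 0.37) did not pass, and their changes were all under 0.25 in size. Rac2, the Rac of blood cells, read 10.77 and 11.36 on GM-MPP, 9.72 and 10.66 on GM-DC, and 9.43 and 10.76 on GM-TNFa-DC (-0.87 ± 0.54, adjusted p = 0.421). The activators of Rac and Cdc42, Dock2 (-0.11 ± 0.27) and Dock8 (-0.05 ± 0.27), did not pass.

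These 4 calls rest on few arrays. Leaving out GM-MPP 1, GM-MPP 2 or GM-DC 1 left 0 members called in limma, and leaving out GM-DC 2 left 1, Evl, with the lone array assumed to vary like the other groups; the adjusted p of Rhoc then reached at most 0.0680. The changes of all 4 genes kept their sign under every alternative tried.

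**Figure D3:**
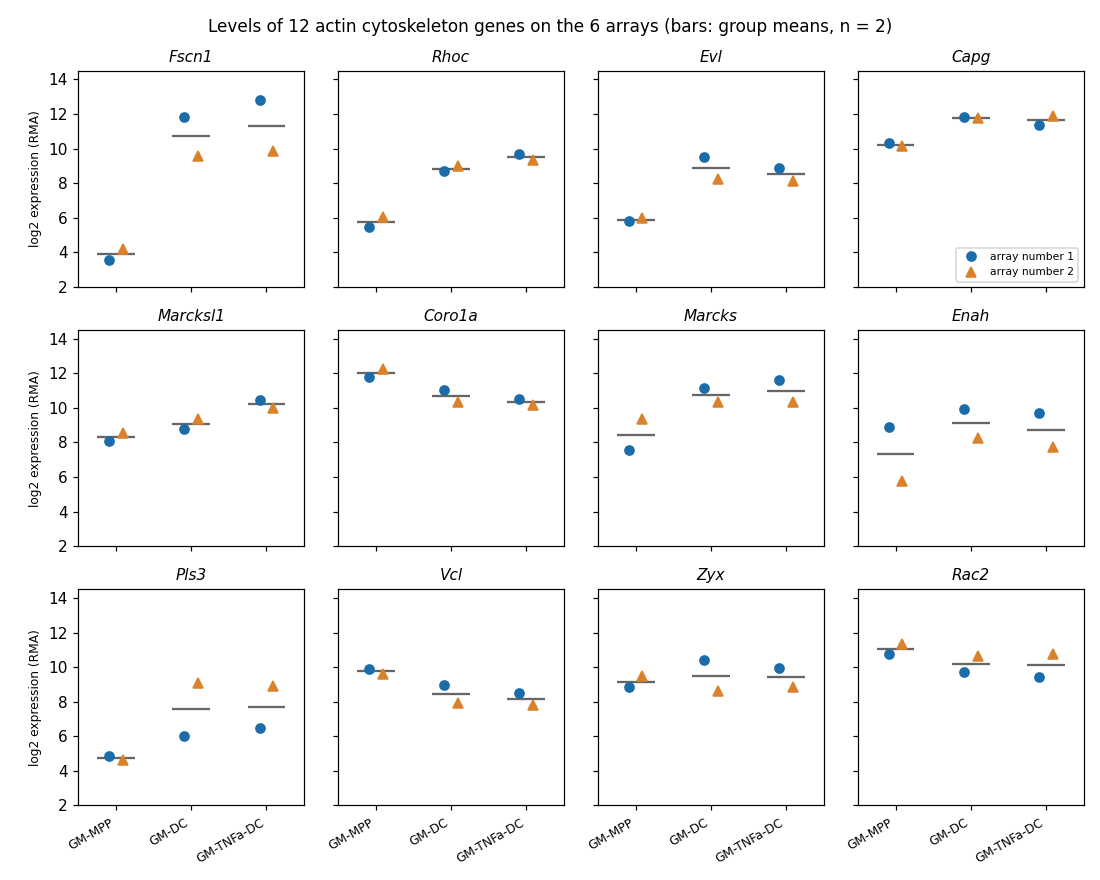
Log2 expression of 12 actin cytoskeleton genes on each array (circles number 1, triangles number 2; bars are group means, n = 2). Fscn1, Rhoc, Evl and Capg are higher on all 4 dendritic cell arrays than on both GM-MPP arrays, and Pls3 is high on the number-2 dendritic cell arrays.

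Other genes of the actin machinery, from a list of 143 that excludes the 46, were measured for 133. In GM-DC 7 of them rose and 4 fell, 8.27% of the list beside 4.5% of all genes, with a median log2 change of 0.09 over the list. The median level was 8.47 over the list and 5.73 over all genes, so shares of this list do not compare genes of like level. The risen genes were Myo1e, a membrane-bound myosin (3.31 ± 0.34), Spire1, which starts straight filaments (2.71 ± 0.28), the profilin Pfn2 (2.21 ± 0.16), Mtss1, which bends membranes (2.18 ± 0.39), the tropomyosin Tpm4 (1.58 ± 0.28), the Cdc42 relative Rhoq (1.53 ± 0.22) and Plek, a protein kinase C substrate (1.38 ± 0.20). Rhou (-2.56 ± 0.78), Cttnbp2nl (2.55 ± 0.86) and Cald1 (2.48 ± 0.72) differed by more than most of these and did not pass. The fallen genes were Def6, which activates Rac (-1.46 ± 0.21), the parvin Parvg (-1.18 ± 0.20), the adducin Add3 (-1.17 ± 0.19) and Arhgdib, a GTPase inhibitor of blood cells (-1.12 ± 0.19). The adjusted p of the 11 called genes lay between 0.00519 and 0.0445 (limma). Pfn2 stayed between 2.58 and 5.01 on all arrays, at or near background. The main actin gene Actb read between 13.68 and 13.90 on all 6 arrays, near the top of the scale.

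GM-TNFa-DC were compared with GM-DC to see what adding TNFa changed. No member passed the test, and neither did any other gene: 0% of 18193 genes were called higher and 0% lower (limma), against 270 higher and 140 lower at an unadjusted p under 0.05. Of the members, 1 was higher and 0 were lower at that unadjusted threshold. The median log2 change of the members was -0.03, beside 0.01 over all genes. Of the 43, 40 differed by less than 0.5, as did 17153 of all 18193 genes. Both GM-TNFa-DC arrays were above both GM-DC arrays for 7 members, where 14.9% of all genes were, and below them for 1, Cdc42, where 10.6% of all genes were. The 7 were Marcksl1, Rhoc, Arpc4, Vasp, Actn1, Rhoa and Msn.

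The single member under the unadjusted threshold was Marcksl1, which read 8.07 and 8.57 on GM-MPP, 8.80 and 9.35 on GM-DC, and 10.46 and 9.97 on GM-TNFa-DC. The 3 groups did not overlap. Its difference was 1.14 ± 0.32 (unadjusted p = 0.0132, adjusted p = 1.00), being 1.67 between the number-1 arrays and 0.62 between the number-2 arrays. All 4 of its probe sets were higher, by 0.87 to 1.42. All 4 carry a suffix, _x_at for the one used and _x_at or _s_at for the others. Affymetrix gives these suffixes to sets with probes that can match more than 1 transcript. Rhoc differed by 0.69 ± 0.29 (unadjusted p = 0.0574), at 1.02 for number 1 and 0.36 for number 2. Fscn1 differed by 0.60 ± 1.14, with 0.96 and 0.25 for the same numbers, and its arrays overlapped.

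The other members among the 8 with the largest differences were all under 0.5 in size: Gsn (-0.45 ± 0.48), Rhoh (-0.43 ± 0.37), Enah (-0.40 ± 1.23), Evl (-0.37 ± 0.48) and Arpc4 (0.36 ± 0.19). Rhoh, an atypical member of the GTPase group that lacks GTPase activity, read 7.08 and 6.36 on GM-MPP, 6.81 and 6.50 on GM-DC, and 5.83 and 6.61 on GM-TNFa-DC. Arpc4 read 9.44 and 9.56 on GM-MPP, 9.16 and 8.94 on GM-DC, and 9.39 and 9.42 on GM-TNFa-DC. The arrays of both groups overlapped for Gsn, Rhoh, Enah and Evl and did not for Arpc4. Of the 133 other actin genes 0 passed (2 higher and 1 lower at an unadjusted p under 0.05), the largest difference being 0.89 ± 0.70 for Aif1, an actin bundler of macrophages.

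GM-TNFa-DC were also compared with GM-MPP; the comparison shares the GM-MPP arrays with that of GM-DC, so the calls are set side by side and are not independent. Fscn1, Rhoc, Evl, Capg and Marcksl1 rose and Coro1a fell, 5 genes higher and 1 lower of 43, where 2.77% of all genes were higher and 4.26% lower, 7.03% in all. Both GM-TNFa-DC arrays lay above both GM-MPP arrays for 17 members, where 31.6% of all genes did, and below them for 12, where 26.1% did. The 4 genes that rose in GM-DC were all called here too. Fscn1 was higher by 7.44 ± 1.14, Rhoc by 3.75 ± 0.29 (13.5-fold, adjusted p = 0.00507), Evl by 2.61 ± 0.48, Marcksl1 by 1.90 ± 0.32 (3.72-fold, adjusted p = 0.0315) and Capg by 1.42 ± 0.22. Coro1a changed by -1.71 ± 0.32 (adjusted p = 0.0392), with 3 of 3 probe sets lower. With the mean of the probe sets of each gene in place of the brightest, 3 members were called higher in place of 5, and Coro1a was no longer called. The change of Fscn1 was then 3.04 and that of Evl 1.48. Was (-1.20 ± 0.27, adjusted p = 0.0597), Vcl (-1.60 ± 0.43, adjusted p = 0.0901), Msn (0.67 ± 0.18, adjusted p = 0.0952), Marcks (2.52 ± 0.72, adjusted p = 0.103) and Pls3 (2.95 ± 1.18, adjusted p = 0.196) did not pass. The median of the members was 0.06, beside 0.05 over all genes.

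Rhoc was called whichever array was left out. Without GM-MPP 1 or GM-MPP 2 it was the single member called, without GM-TNFa-DC 1 Capg was called beside it, and without GM-TNFa-DC 2 Fscn1 was; without GM-DC 1 or GM-DC 2, Capg alone lost its call. Of the 133 other actin genes 8 rose and 6 fell, where 2.77% of all 18193 genes rose and 4.26% fell. The median level was 8.47 over the list and 5.73 over all genes, so these counts do not compare genes of like level. Myo1e (3.02 ± 0.34), Spire1 (2.94 ± 0.28), Tes, a zyxin partner at adhesions (2.19 ± 0.33), and Pfn2 (2.03 ± 0.16) had the largest increases among those called, and Ssh2, a cofilin phosphatase (-1.91 ± 0.37), and Add3 (-1.78 ± 0.19) the largest decreases; Cttnbp2nl (2.22 ± 0.86) and Rhou (-2.10 ± 0.78) differed by more than some of these without passing.

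Array number 2 was compared with number 1 on the 4 dendritic cell arrays, with the group as a covariate. These arrays were already known to stand apart by number, so the calls describe a separation seen beforehand. Fscn1, Enah, Zyx, Marcks, Evl, Vcl and Rac1 were lower on the number-2 arrays and Pls3, Rac2 and Tmsb10 higher. That is 7 of 43 lower, where 5.41% of all genes were lower, and 3 higher, where 6.41% of all genes were higher, 11.8% in all (limma, 1 residual degree of freedom). Both number-2 arrays lay above both number-1 arrays for 7 members, where 29.8% of all genes did, and below them for 20, where 25.6% did. Under at least 1 alternative the calls of Evl, Vcl, Rac1 and Tmsb10 were lost, that of Tmsb10 under 3 of 5. With each array centred on its median the split was 12 lower and 2 higher, and over all genes 1566 lower and 1165 higher in place of 984 and 1166. Whether same-numbered arrays of the 2 groups came from the same cells is not given in the sources used here, so the p-values measure only how alike both pairs of arrays differ.

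Fscn1 differed by -2.25 between the GM-DC arrays and by -2.96 between the GM-TNFa-DC arrays, a mean of -2.61 ± 0.19 (adjusted p = 0.00390), with 4 of 4 probe sets lower on number 2. Pls3 went the other way by 3.05 and 2.44, a mean of 2.75 ± 0.19 (adjusted p = 0.00360). These bundlers were thus split in opposite directions between the same arrays. On the GM-MPP arrays the same differences were 0.63 for Fscn1 and -0.21 for Pls3, at levels near background.

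Enah was lower on number 2 by 1.68 in GM-DC and 1.97 in GM-TNFa-DC (-1.83 ± 0.14, adjusted p = 0.00424), and by 3.16 in GM-MPP, with 6 of 6 probe sets lower in the dendritic cells. Zyx (-1.44 ± 0.21), Marcks (-1.07 ± 0.15), Evl (-1.02 ± 0.17), Vcl (-0.88 ± 0.16) and Rac1 (-0.76 ± 0.11) were lower, with adjusted p between 0.0162 and 0.0315. Marcks ran the other way in the progenitors, where number 2 was higher by 1.77. Rac2 was higher by 1.14 ± 0.15 (adjusted p = 0.0143), and Tmsb10 by 0.42 ± 0.09 (adjusted p = 0.0487) on its bright probe set, with 1.14 and 1.26 on the 2 of middle brightness. Rac1, the widely expressed Rac, read 11.63 and 11.39 on GM-MPP, 12.09 and 11.35 on GM-DC, and 11.96 and 11.18 on GM-TNFa-DC, with the number-1 array the higher in each group. Of the 3 probe sets of Rac1, 2 were lower on number 2, so the 2 Rac genes differed in opposite directions for the brightest probe set of each. Rhoc (-0.02 ± 0.20) and Capg (0.24 ± 0.16) did not pass here.

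**Figure D4:**
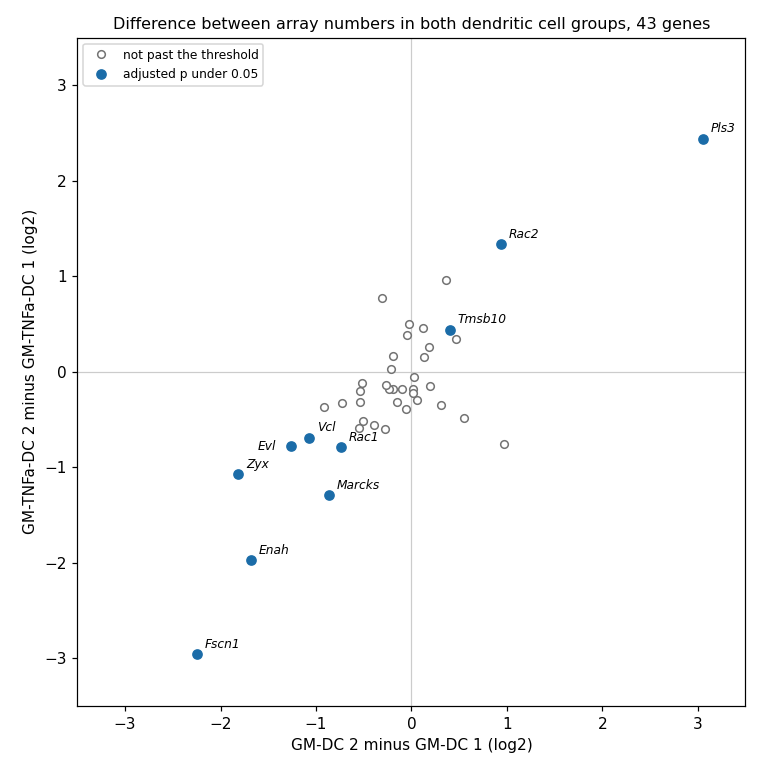
Difference in log2 expression between array numbers 2 and 1 in GM-DC (x axis) and in GM-TNFa-DC (y axis), 1 point for each of 43 actin cytoskeleton genes; filled points passed the test. Fscn1 lies lowest at -2.25 and -2.96 and Pls3 highest at 3.05 and 2.44.

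Over the 43 genes the number differences of GM-DC and GM-TNFa-DC correlated at r = 0.819, and over all genes at 0.806, as a description over genes that share arrays; with those of GM-MPP the members correlated at 0.101 and 0.0794. The median number difference of the members was -0.14, beside 0.03 over all genes. Of the 133 other actin genes 25 were lower on number 2 and 11 higher, 27.1% of the list beside 11.8% of all genes. These shares again do not compare genes of like level, with medians of 8.47 for the list and 5.73 over all genes. The largest decreases were those of Nckap1, a WAVE complex subunit (-2.58 ± 0.23), Pdlim1, an adaptor on stress fibres (-2.58 ± 0.16), and the calponin Cnn2 (-2.39 ± 0.19). The formin Fmnl2 had the largest increase (2.01 ± 0.32).

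Markers of cell types moved with the array number as well. Of 10 dendritic cell markers 9 were lower on number 2 and 0 higher, and their mean log2 level was 10.40 and 10.71 on GM-DC 1 and GM-TNFa-DC 1 against 8.85 and 9.15 on the number-2 arrays. Of 7 monocyte and macrophage markers 2 were higher (Cd14 and Fcgr1) and 2 lower (Mrc1 and Mertk), with mean levels of 10.41 and 9.87 on number 1 and 10.86 and 10.61 on number 2. Of 5 megakaryocyte and platelet markers 2 were higher, the chemokine genes Pf4 and Ppbp, and the list's mean level was 5.30 and 5.80 on number 1 against 7.84 and 7.90. Itga2b, Gp1bb and Gp9 did not pass, with differences of -0.18, 0.38 and -0.05, and Gp1bb read near the array medians. Of 11 stromal and endothelial markers 3 were higher (Dcn, Pecam1 and Kdr), with mean levels of 5.06 and 4.96 on number 1 and 5.42 and 5.44 on number 2, while Col1a1 and Col1a2 did not pass. Of 8 granulocyte precursor markers 4 were lower (Ngp by -2.35, Ltf by -2.30, Ctsg by -1.22 and Mpo by -0.88) and 1 higher (Prtn3 by 0.84). Of 7 progenitor markers 1 was lower, Kit, by -3.29 ± 0.14 (adjusted p = 0.00187), and of 6 mast cell and basophil markers 1, Cpa3, by -1.08 ± 0.17. The part of these differences, and of the brighter poly-A controls on number 1, in the values of Fscn1, Pls3 and the other members was not tested.

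In all, 14 of the 43 genes (32.6%) passed in at least 1 of the 4 comparisons, where 18.2% of all genes did, and 6 (14%) in a comparison with GM-MPP, where 7.29% did. The median level was 9.81 for the members and 5.73 over all genes, so these shares do not compare genes of like level. Fscn1 and Evl passed both there and between array numbers, 4.65% of the members beside 0.896% of all genes. The 29 others (67.4%, beside 81.8% of all genes) did not pass anywhere, and 27 of the 43 (62.8%, beside 69.7%) varied by less than 1 log2 unit over the 6 arrays. The narrowest ranges over the 6 arrays, leaving out the dim Wasf1, were 0.28 for Cdc42, 0.30 for Arpc2 and 0.30 for Wasf2.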

How the data were processed

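The deposited values, 1 per probe set and array, were made with RMA, per the submitters' processing notes, and with Bioconductor, per the labels; RMA corrects background, quantile-normalizes arrays and summarises probes. The deposited log2 scale was inferred from the range of 1.89 to 14.43. The sources used here give no version and do not say which arrays were normalized in 1 run. Of 45101 probe sets, 34945 had 1 symbol, updated through Entrez identifiers to a RefSeq table of GRCm38.p6 (34741 matched), 932 had several, 64 were controls and the others were unnamed here.

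Each of 18193 genes was fitted by limma 3.58.1 under R 4.3.3 (lmFit, then eBayes with trend, 3 residual degrees of freedom, Benjamini-Hochberg adjusted p under 0.05). The members, roles and lists were chosen with earlier results of these data known. Every array value is given for Fscn1, for called members and for the 8 largest changes of each comparison; of the other actin genes, called ones and the 6 largest changes may be named.

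On simulated arrays of 18193 genes with real means and spreads, 24% of genes changed 2-fold and 86% changed 4-fold were called for GM-DC against GM-MPP, and 9 unchanged genes passed; adding TNFa gave 22% and 70%, and 15. The alternatives tried were median centring, quantile normalizing the deposited values again, leaving out dim genes (means up to 5.73), averaging the probe sets of each gene, no trend, a block for the array number, only the 4 arrays compared and each array left out. Plots were drawn with matplotlib 3.10.9 in Python 3.11.15.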

Additional observations from a re-analysis of the deposited data

How the results depend on the processing

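In both comparisons with GM-MPP the counts of called members were the same after a second quantile normalization and after median centring. Averaging the probe sets of each gene gave 2 members higher in GM-DC, and 3 higher and 0 lower in GM-TNFa-DC, each against GM-MPP. Leaving out dim genes or the trend each gave 2 members lower in GM-TNFa-DC. Median centring gave 12 members and 1566 genes lower on number 2. The replicate numbers are not stated to pair the samples: deviations of same-numbered arrays correlated at 0.806 between GM-DC and GM-TNFa-DC, 0.105 between GM-MPP and GM-DC and 0.0719 between GM-MPP and GM-TNFa-DC. With the replicate number as a block, 2 members fell in GM-DC against GM-MPP, Vcl (adjusted p = 0.0470) and Was (0.0490), and 5 rose, Gsn (0.0403) being added; 3 fell in GM-TNFa-DC, Vcl, Was and Coro1a; over all genes 627 rose and 849 fell in GM-DC, and 850 rose and 1210 fell in GM-TNFa-DC. The block on only the 4 arrays compared, chosen after seeing the data, left 1 member and 151 genes higher and 125 lower in GM-DC, and 1 member higher, 0 lower, and 144 genes higher and 116 lower in GM-TNFa-DC. Only the 4 arrays compared, without the block, gave 303 and 446 in GM-TNFa-DC. Leaving out 1 array at a time gave 0 to 4 members, 20 to 346 genes higher and 30 to 371 lower in GM-DC, and 1 to 4 members higher, 0 to 1 lower, 37 to 303 genes higher and 51 to 457 lower in GM-TNFa-DC. For GM-TNFa-DC against GM-DC every alternative gave 0 higher and 0 lower. Leaving out an array could not be fitted for the array number, as no residual degree of freedom is left. No called member changed sign under any of these alternatives. With 2 arrays a group, most 2-fold changes were missed in the simulation, and levels near background or near the top of the scale may be compressed.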
